A study of Mus musculus with 16 samples.

Results

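The 6 enzymes that write most methylation on lysine 4 of histone H3 (H3K4) in mammals, and 4 of the proteins that hold them in active complexes, were followed as RNA in mouse small cell lung tumors. The 10 genes were taken by symbol: Kmt2a, Kmt2b, Kmt2c, Kmt2d, Setd1a and Setd1b for the enzymes, and Wdr5, Ash2l, Rbbp5 and Men1 for the partners. All 10 were found under these symbols among 24016 named genes, and all 10 passed the filter on low values, which kept the 13123 genes that reached 1 FPKM in 8 or more of the 16 tumors. FPKM count fragments relative to both transcript length and library size, so levels of different genes can be set side by side, though only roughly. Differences that go with transcript length can remain, as described below for sgControl RPP tumor 1.

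COMPASS-type complexes place methyl groups on H3K4, a mark of active promoters when trimethylated and of enhancers when monomethylated. Every complex of this family shares WDR5, RBBP5, ASH2L and DPY30, without which the catalytic SET domain works poorly. SETD1A and SETD1B carry out much of the bulk trimethylation, KMT2A and KMT2B act at developmental promoters together with menin (the product of Men1), and KMT2C and KMT2D methylate enhancers. KDM5A, the enzyme targeted in this study, removes the trimethyl mark that these complexes build, and KMT2D is recurrently mutated in human small cell lung cancer.

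The study comprised 16 lung tumors from mice of the strain H11-LSL-Cas9, in which Cre recombinase switches on Cas9. The labels number the tumors, and each number is read here as a separate mouse. The tests below rest on that reading, since they treat the tumors as independent. Mice aged 2 to 4 months had received adenovirus through the trachea, carrying CMV-driven Cre (a promoter that does not restrict the infected cell type) and sgRNAs. The label was sgControl RPP for 8 tumors and sgKdm5a RPP for 8. The labels do not spell out RPP, which is read here, from what is known of this mouse model, as sgRNAs targeting Rb1, Trp53 and Rbl2 in both groups, with Kdm5a targeted as well in the second. Tumors were taken at the end point of each mouse, RNA was bulk, and the libraries were stranded total RNA. Fewer cells of a type and less RNA per cell cannot be told apart in such samples.

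Kdm5a RNA, reported first as a check of the labels, ran against them. Its lowest, median and highest values were 8.16, 12.3 and 17.3 FPKM in the sgKdm5a-labelled tumors and 3.28, 7.66 and 8.06 FPKM in the sgControl-labelled tumors. Editing by Cas9 need not lower RNA, and the edited bases were not analysed here, so the groups are named below by their labels, and every difference is sgKdm5a-labelled minus sgControl-labelled. One library stood apart before any comparison: the median gene of sgControl RPP tumor 1 stood at 2.38 FPKM, while that of the other 15 libraries ranged from 10.0 to 12.3 FPKM, and a single entry, Mir6236, held 904068 FPKM, against 27123 to 84160 FPKM elsewhere. The 6 neuroendocrine markers Insm1, Chga, Syp, Calca, Uchl1 and Ncam1 were above 0 in every tumor, with summed levels of 622 to 12128 FPKM in the sgControl-labelled and 2395 to 9944 FPKM in the sgKdm5a-labelled tumors. The median of these sums was 2473 FPKM in the sgControl-labelled and 3868 FPKM in the sgKdm5a-labelled tumors. Markers of other cells were present too, and several had higher medians in the sgKdm5a-labelled group. Medians were lower in that group for erythroid cells (921 FPKM sgControl-labelled, 573 FPKM sgKdm5a-labelled) and ciliated cells (26.4 and 24.6 FPKM). The median summed level was 83.4 FPKM in the sgControl-labelled and 666 FPKM in the sgKdm5a-labelled tumors for alveolar type 2 cells, 187 and 536 for macrophages, 75.8 and 286 for fibroblasts, and 31.2 and 70.6 for endothelium. Summed FPKM ran from 10.4 to 5450 in the sgControl-labelled and 35.0 to 2872 in the sgKdm5a-labelled tumors for alveolar type 2 cells (6 markers, Lamp3 at 0 in sgControl RPP tumor 1 and in at least 1 sgKdm5a-labelled tumor). They ran from 19.3 to 2090 and 191 to 1312 for macrophages (4 of 5 markers found), from 14.9 to 455 and 28.6 to 1238 for fibroblasts (5 markers), and from 10.5 to 119.7 and 26.1 to 84.8 for endothelium (5 markers). For alveolar type 1 cells the ranges were 10.5 to 600.1 and 18.5 to 268 (3 markers), for ciliated cells 9.99 to 108 and 13.1 to 37.2 (3 markers, Ccdc113 at 0 in some tumors of each group), and for erythroid cells 187 to 1750 and 148 to 1554 (3 markers). For T cells they were 0.256 to 23.9 and 2.36 to 13.3 (5 markers) and for B cells 1.40 to 49.1 and 6.55 to 35.1 (3 markers), with Cd3e, Cd3g, Cd2 and Ms4a1 at 0 in sgControl RPP tumor 1. The part of these cells in the values below was not tested.

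Wdr5 and Ash2l, of the shared core, were the most abundant of the 10 RNAs by mean level, and Men1 came next. Rbbp5, also of the core, was level with the enzyme gene Setd1a. Outside sgControl RPP tumor 1, mean levels over 15 tumors fell in the order Wdr5 (30.1 ± 4.24 FPKM, SD, n = 15), Ash2l (28.9 ± 4.11), Men1 (23.8 ± 8.33), Rbbp5 (14.5 ± 2.21), Setd1a (14.5 ± 3.26), Kmt2a (10.7 ± 2.01), Kmt2b (9.71 ± 1.84), Kmt2c (5.88 ± 1.07), Setd1b (4.02 ± 1.07) and Kmt2d (3.13 ± 0.776). Not every step of this order exceeded the spread. Wdr5 was above Ash2l in only 5 of 16 tumors, Rbbp5 above Setd1a in 11, and Kmt2a above Kmt2b in 12, whereas Kmt2c was above Setd1b in all 16 and Kmt2b above Kmt2c in 15. Set against all tested genes of the same tumor, with 100 the highest, Wdr5 held percentiles of 70.0 to 82.0 in these 15 tumors, Setd1a 47.3 to 72.5, and Kmt2d 8.31 to 25.7, so that the enhancer enzyme KMT2D had one of the lower RNAs per length that passed the filter.

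**Figure D1:**
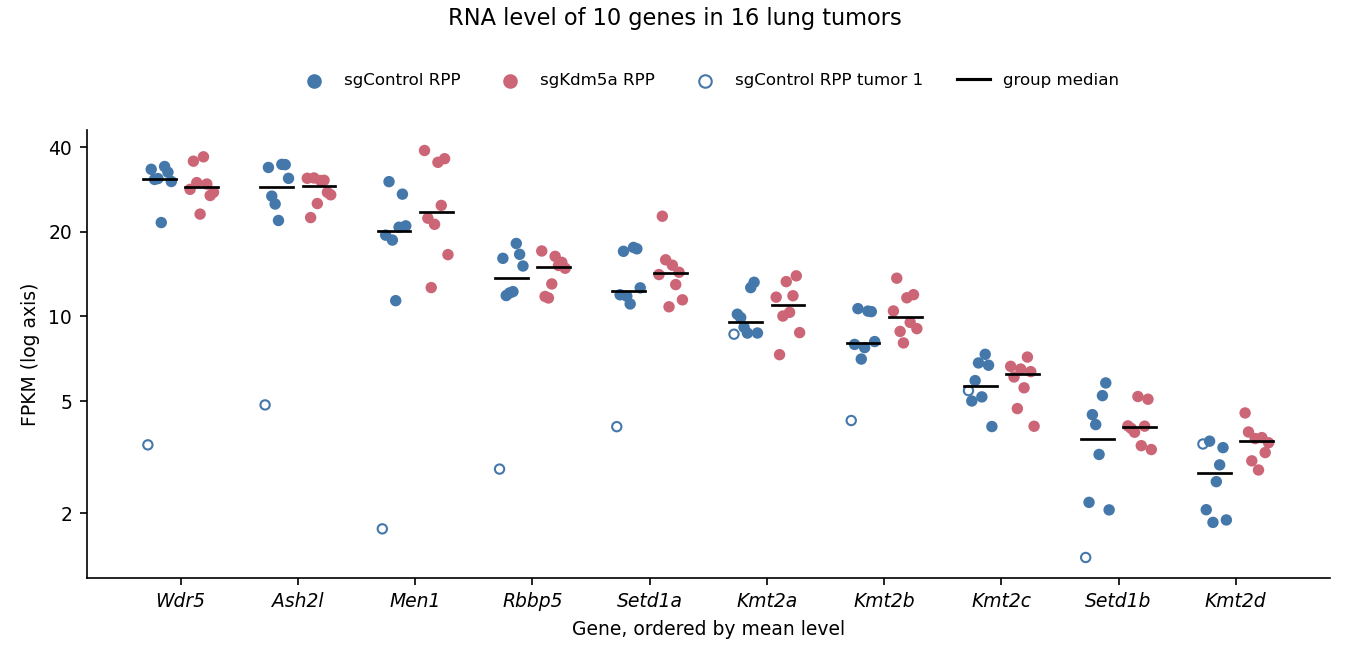
FPKM (log axis) of the 10 genes in each tumor, in order of mean level; filled points are tumors of the 2 labelled groups, open circles sgControl RPP tumor 1 and bars group medians. The groups overlap in every gene. The open circle lies far below the rest for Wdr5, Ash2l, Rbbp5, Men1 and Setd1a. It is the lowest by a smaller distance for Kmt2b and Setd1b, and lies among the rest for Kmt2a, Kmt2c and Kmt2d.

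No member passed the test between the groups. At an adjusted p below 0.05 (limma, Benjamini-Hochberg over 13123 genes) 0 of 10 rose and 0 fell, where 0.00762% of all tested genes were called. At an unadjusted p below 0.05 there were also 0 of 10, against 4.42% of all tested genes, and with libraries brought to 1 median level (median scaling) 0 of 10 against 9.93%. In no member were the groups free of overlap, against 0.0838% of all tested genes, 0.0991% without sgControl RPP tumor 1 and 0.107% in multiples of the library median. The median log2 difference of the 10 was 0.24 on the log2(FPKM + 1) scale, close to the 0.21 of all tested genes, which falls to 0.002 after median scaling, where the median of the 10 was 0.03. On the deposited scale 8 of 10 lay above the all-gene median. It was 6 of 10 after median scaling, and 8 of 10 when sgControl RPP tumor 1 was left out of that scaling. All 10 adjusted p-values lay between 0.852 and 0.985 (limma).

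The core subunits had closely placed values outside sgControl RPP tumor 1, where all 3 were far lower. Wdr5, the scaffold that binds a short motif near each SET domain, had lowest, median and highest values of 3.50, 30.8 and 34.1 FPKM in the sgControl-labelled and 23.1, 28.9 and 36.9 FPKM in the sgKdm5a-labelled tumors. Only 2 of 8 sgKdm5a-labelled tumors exceeded the median of the other group, although the fitted log2 difference was 0.31 (95% interval -0.41 to 1.04, adjusted p = 0.860, limma). That positive sign rested on sgControl RPP tumor 1, without which the difference was -0.03. Ash2l, which with RBBP5 contacts the SET domain and stimulates it, had values of 4.85, 28.9 and 34.7 FPKM against 22.5, 29.0 and 31.1 FPKM in the same order. Rbbp5 had 2.87, 13.7 and 18.2 FPKM against 11.6, 15.01 and 17.1 FPKM. For both the group medians were close and the ranges overlapped almost fully above the single low library. After median scaling that left out sgControl RPP tumor 1, the log2 differences of Wdr5, Ash2l and Rbbp5 were -0.02, -0.05 and 0.007, and their 95% intervals were -0.32 to 0.29, -0.31 to 0.22 and -0.25 to 0.26 (limma).

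Men1 varied most of the 10 between tumors. Menin tethers KMT2A and KMT2B to chromatin, and its gene is a tumor suppressor in endocrine tissues. Its lowest, median and highest values were 1.76, 20.1 and 30.1 FPKM in the sgControl-labelled and 12.7, 23.6 and 38.9 FPKM in the sgKdm5a-labelled tumors. The 3 highest values, 38.9, 36.4 and 35.3 FPKM, belonged to sgKdm5a RPP tumors 1, 7 and 5, while sgKdm5a RPP tumor 3 held 12.7 FPKM, near the 11.4 FPKM of sgControl RPP tumor 5. The log2 difference was 0.61 (95% interval -0.21 to 1.44, adjusted p = 0.852, limma), the largest of the 10, and 6 of 8 sgKdm5a-labelled tumors exceeded the median of the other group. It was 0.26 after median scaling that left out sgControl RPP tumor 1 (95% interval -0.24 to 0.77, adjusted p = 0.821, limma). Over the 15 other tumors the coefficient of variation of Men1 was 35.0%, against 31.4% for the median tested gene. Those of Wdr5, Ash2l and Rbbp5 were 14.1, 14.2 and 15.2%, and fewer than 5% of tested genes varied less. With sgControl RPP tumor 1 included they were 27.5, 26.3 and 26.2%, above the 19.0% of Kmt2a and the 17.7% of Kmt2c.

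Among the enzymes, Kmt2b and Kmt2d had the largest log2 differences on the deposited scale, and neither passed the test. Kmt2d had lowest, median and highest values of 1.86, 2.78 and 3.61 FPKM in the sgControl-labelled and 2.85, 3.62 and 4.54 FPKM in the sgKdm5a-labelled tumors. All 8 sgKdm5a-labelled tumors exceeded the sgControl-labelled median, but 4 sgControl-labelled tumors, numbers 1, 3, 6 and 7, lay within the range of that group at 3.52, 3.61, 2.97 and 3.42 FPKM. The log2 difference was 0.31 (95% interval -0.12 to 0.74, adjusted p = 0.852, limma), and median scaling of all 16 libraries brought it to 0.07. After median scaling that left out sgControl RPP tumor 1 it was 0.36, with an interval of 0.03 to 0.70, an unadjusted p of 0.0337 and an adjusted p of 0.537 (limma). In that setting 1 of 10 members had an unadjusted p below 0.05, against 8.67% of all tested genes. Kmt2b, a partner of menin, had 4.27, 8.05 and 10.7 FPKM against 8.05, 9.99 and 13.7 FPKM, and all 8 tumors of the second group exceeded the median of the first. The lowest of the 8, at 8.053 FPKM, barely exceeded that median of 8.049 FPKM. Without sgControl RPP tumor 1 the sgControl-labelled median was 8.14 FPKM, above this lowest value. The log2 difference of Kmt2b was 0.31 (95% interval -0.16 to 0.78, adjusted p = 0.852, limma). It was 0.07 with median scaling of all 16 libraries and 0.22 when sgControl RPP tumor 1 was left out of that scaling.

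Of the other 4 enzymes, Kmt2a, Kmt2c and Setd1a changed direction with median scaling of all 16 libraries, and Setd1b did not. Kmt2a, whose human counterpart is rearranged in acute leukemia, had lowest, median and highest values of 8.65, 9.53 and 13.2 FPKM in the sgControl-labelled and 7.32, 11.0 and 13.9 FPKM in the sgKdm5a-labelled tumors. Kmt2c, the paralog of Kmt2d, had 4.06, 5.69 and 7.34 FPKM against 4.07, 6.23 and 7.17 FPKM, ranges that nearly coincide. The log2 differences of Kmt2a and Kmt2c were 0.09 and 0.02 on the deposited scale and turned to -0.17 and -0.23 with median scaling. Setd1a had 4.06, 12.3 and 17.6 FPKM against 10.8, 14.2 and 22.7 FPKM, and its log2 difference of 0.23 turned to -0.0042 with median scaling. Setd1b had 1.39, 3.68 and 5.81 FPKM against 3.37, 4.04 and 5.20 FPKM, with a log2 difference of 0.25 that was 0.05 with median scaling. When sgControl RPP tumor 1 was left out of the scaling, the log2 differences of Kmt2a, Kmt2c, Setd1a and Setd1b were 0.07, 0.03, 0.06 and 0.14. Both SETD1 genes spanned a wider range in the sgControl-labelled group, and in both its lowest value was that of sgControl RPP tumor 1. Without that tumor only Setd1b kept the wider range in this group, at 2.05 to 5.81 FPKM. That of Setd1a was then 11.1 to 17.6 FPKM, narrower than in the sgKdm5a-labelled group. In GENCODE vM21, Kmt2a, Kmt2c and Setd1a overlap annotated genes on their own strand and on the opposite strand, and Setd1b on the opposite strand only. None of these genes is listed in the table. Reads from the same strand could be counted with the members, and those from the opposite strand only if the counting did not use strand, which is not stated.

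Promoter sequence was looked at for the enzyme pair Kmt2a and Kmt2c, the pair with the steadiest ratio over 16 tumors among members with an entry (Kmt2b, Setd1b and Ash2l were not found). That choice depended on sgControl RPP tumor 1. Without it the SD of the log2 ratio was 0.26 for this pair, above the 0.23 of Setd1a with Wdr5 and the 0.24 of Kmt2a with Rbbp5. This build is not the mm9 of the deposited values, and the windows serve only as sequence. The RefSeq windows of GRCm38.p6, 300 bases each around the start of the gene and mostly before it, are given 5′ to 3′ on the gene's strand, with the GC box GGGCGG or its complement CCGCCC in capitals. They lie at chr9:44881240-44881539 on the minus strand for Kmt2a and chr5:25498734-25499033 on the minus strand for Kmt2c.
Kmt2a: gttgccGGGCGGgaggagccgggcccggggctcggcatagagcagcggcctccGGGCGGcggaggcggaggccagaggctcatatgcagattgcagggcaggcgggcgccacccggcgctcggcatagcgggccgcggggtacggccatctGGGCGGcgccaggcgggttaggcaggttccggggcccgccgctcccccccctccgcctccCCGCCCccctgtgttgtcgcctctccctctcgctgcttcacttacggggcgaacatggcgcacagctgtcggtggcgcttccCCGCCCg
Kmt2c: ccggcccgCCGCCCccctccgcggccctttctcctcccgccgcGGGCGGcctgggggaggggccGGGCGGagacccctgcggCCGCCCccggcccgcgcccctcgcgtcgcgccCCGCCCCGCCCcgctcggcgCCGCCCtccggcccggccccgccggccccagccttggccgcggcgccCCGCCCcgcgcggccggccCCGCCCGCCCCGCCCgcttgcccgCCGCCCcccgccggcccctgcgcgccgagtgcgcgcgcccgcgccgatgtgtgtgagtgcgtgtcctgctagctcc
The Kmt2a window held 5 GC boxes at 75.7% G or C, and the Kmt2c window 12, overlaps counted, at 88.0%. A GC box occurred in 35.7% of the 32851 windows of the table, and the median window had 52.7% G or C. Neither window held the ETS core CCGGAAG, which 8.86% of windows held, or the core of the NRF1 motif, which 4.603% held, on either strand. Such matches describe letters and not binding.

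**Figure D2:**
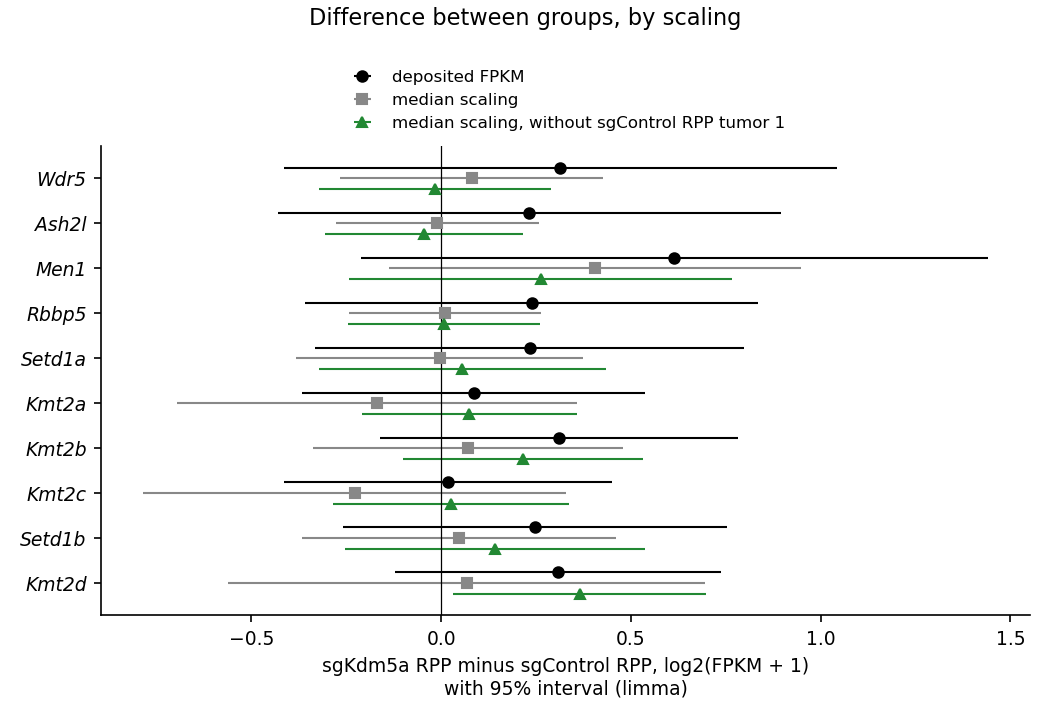
Log2 difference (sgKdm5a-labelled minus sgControl-labelled, log2(FPKM + 1)) with its 95% interval from limma for each gene, on deposited values, after median scaling, and after median scaling without sgControl RPP tumor 1. Of the 30 intervals 1 leaves out 0, that of Kmt2d in the last setting (0.03 to 0.70), and the intervals of Wdr5, Ash2l and Rbbp5 are much narrower once libraries are scaled.

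Ratios between paralogs were compared because the scale of a library cancels within a tumor. Unequal shares of different genes within 1 library, as described below for sgControl RPP tumor 1, do not cancel. The FPKM ratio of Kmt2c to Kmt2d, the enhancer pair, had a lowest, median and highest value of 1.55, 2.07 and 3.69 in the sgControl-labelled and 1.14, 1.67 and 1.96 in the sgKdm5a-labelled tumors. All 8 sgKdm5a-labelled tumors lay below the sgControl-labelled median and 3 lay below every sgControl-labelled tumor. The highest value, 3.69, came from sgControl RPP tumor 4. The difference in mean log2 ratio was -0.40 (0.71 ± 0.27 against 1.11 ± 0.39, SD, n = 8 each), and the exact permutation test (two-sided) gave p = 0.0256, or 0.0769 after Benjamini-Hochberg adjustment over the 3 ratios, so it did not pass. Without sgControl RPP tumor 1 the log2 difference was -0.47 (exact permutation, adjusted p = 0.0224), and without sgControl RPP tumor 3 it was -0.45 (exact permutation, adjusted p = 0.0378). Without sgControl RPP tumor 4 it was -0.29 (exact permutation, adjusted p = 0.157), and with 1 FPKM added to both genes -0.29 (exact permutation, adjusted p = 0.110). The other leave-outs of 1 tumor did not pass. Among the mice numbered 190 to 238 (7 sgControl-labelled, 4 sgKdm5a-labelled) it was -0.44 (exact permutation p = 0.109, adjusted p = 0.214). Mice numbered 839 to 893 included a single tumor with the sgControl label, too few for a value of their own.

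The trithorax-type pair and the SET1 pair did not separate the groups. The ratio of Kmt2a to Kmt2b was 0.930, 1.24 and 2.03 (lowest, median, highest) in the sgControl-labelled and 0.535, 1.13 and 1.65 in the sgKdm5a-labelled tumors. Its log2 difference was -0.26 (0.06 ± 0.47 against 0.32 ± 0.33, SD, n = 8 each, exact permutation p = 0.241, adjusted p = 0.361). It was -0.16 without sgControl RPP tumor 1 (exact permutation, adjusted p = 0.542) and -0.12 without sgKdm5a RPP tumor 2 (exact permutation, adjusted p = 0.477). It was -0.44 among the mice numbered 190 to 238, which include both of these tumors (exact permutation p = 0.142, adjusted p = 0.214). The ratio of Setd1a to Setd1b was 2.86, 3.39 and 6.15 against 2.08, 3.43 and 5.68. Its log2 difference was -0.09 (1.81 ± 0.43 against 1.90 ± 0.42, SD, n = 8 each, exact permutation p = 0.681, adjusted p = 0.681) and -0.05 in the same subset. Setd1a RNA exceeded Setd1b RNA in all 16 tumors, by 2.08 to 6.15 times.

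**Figure D3:**
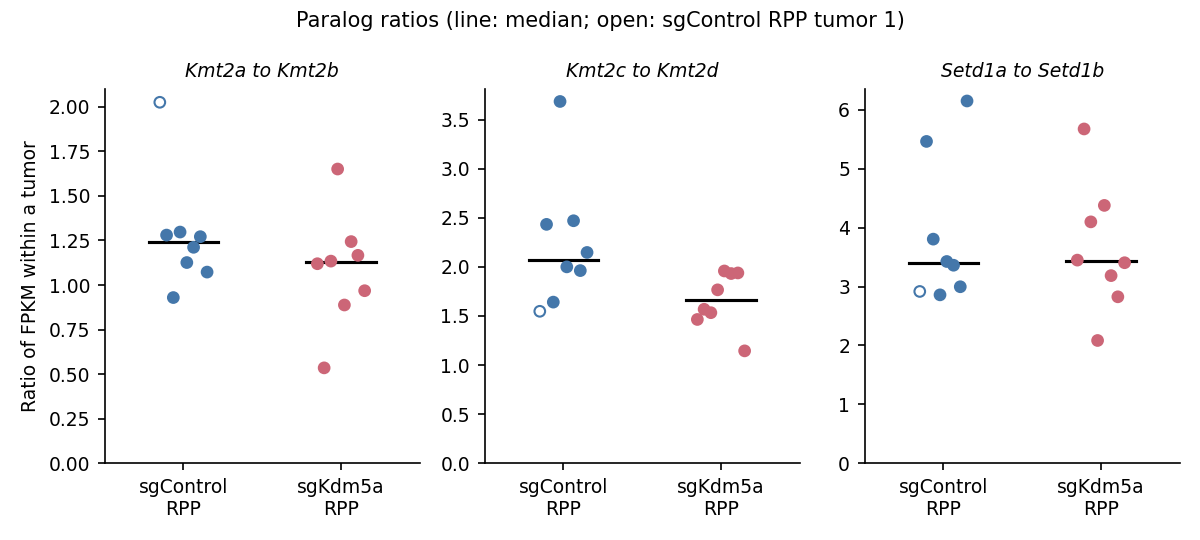
Ratio of FPKM of 2 paralogs within each tumor for the 3 pairs, by labelled group; bars are medians and the open circle is sgControl RPP tumor 1. For Kmt2c to Kmt2d all 8 sgKdm5a-labelled tumors lie under the sgControl-labelled median of 2.07, and in each of the other pairs 2 of 8 lie under every sgControl-labelled tumor.

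In a single sgKdm5a-labelled tumor, picked after its values were seen, some enzyme genes held the highest or lowest value of all tumors and others ranked in the middle. In sgKdm5a RPP tumor 2, Kmt2b (13.7 FPKM) and Setd1a (22.7 FPKM) were the highest of the 16 tumors while Kmt2a (7.32 FPKM) was the lowest. Kmt2d (3.89 FPKM) and Wdr5 (35.6 FPKM) ranked second from the top in this tumor, and Ash2l (22.5 FPKM) and Rbbp5 (11.8 FPKM) ranked 14 of 16. Men1, Kmt2c and Setd1b ranked 7, 8 and 9 of 16. This tumor held the lowest Kmt2a to Kmt2b ratio, 0.535, and the next lowest was 0.888 in sgKdm5a RPP tumor 5.

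In sgControl RPP tumor 1 the 10 genes stood at very unequal shares of their level in the other control libraries, and the shares were higher for members with long transcripts. Kmt2d, Kmt2a and Kmt2c, whose longest annotated transcripts span 19.8, 16.5 and 14.97 kb, stood at 136%, 87.3% and 92.2% of the median of the other 7 sgControl-labelled tumors. Kmt2b (8.47 kb), Setd1b (8.86 kb) and Setd1a (6.49 kb) stood at 52.4%, 33.7% and 32.1%. Rbbp5 (3.385 kb), Ash2l (3.70 kb), Wdr5 (2.89 kb) and Men1 (3.002 kb) stood at 19.0%, 15.7%, 11.3% and 8.48%. Over all tested genes with a transcript length the median was 20.03%, and 96.6% to 98.6% of them had lower percentages than the 3 longest members. The order of levels in this tumor was accordingly different, with Kmt2a first and Kmt2c second of the 10 and Wdr5 seventh. Percentages were higher for long genes in general: the median was 44.6% for the 121 genes of 12 kb and above and 28.6% for the 580 genes of 8 to 12 kb. It was 18.5% to 21.6% in the 3 classes under 8 kb. Most members lay outside the quartiles of their own class. Kmt2d, Kmt2c and Kmt2a exceeded the 75th percentile at 12 kb and above (75.8%), Kmt2b that at 8 to 12 kb (46.6%) and Setd1a that at 4 to 8 kb (31.0%). Men1 and Wdr5 were under the 25th percentile at 2 to 4 kb (12.1%), while Setd1b, Ash2l and Rbbp5 lay between the quartiles. In the same classes each of the other 7 sgControl-labelled libraries held medians of 77.6% to 118% of its peers. What set this pattern was not tested.

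**Figure D4:**
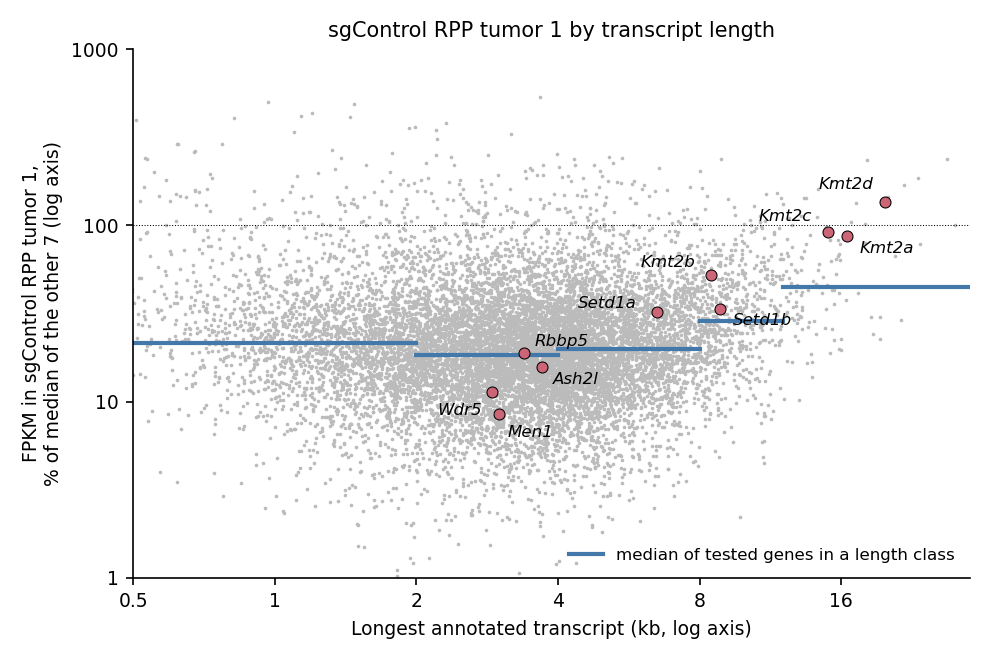
FPKM in sgControl RPP tumor 1 as a percentage of the median of the other 7 sgControl-labelled tumors, against the longest GENCODE vM21 transcript, both on log axes, for 12374 tested genes (grey, another 109 lie outside the axes). Horizontal lines are medians of length classes, and the 10 members rise from 8.48% for Men1 to 136% for Kmt2d.

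The members also differed in how closely they followed each other. Likeness was measured as the SD over tumors of the log2 ratio of 2 genes, where 0 means a constant ratio. Ash2l and Rbbp5, which act together on the SET domain, were the closest of the 45 pairs with all 16 tumors (SD 0.16) and without sgControl RPP tumor 1 (SD 0.15), and 0.0310% and 0.0696% of 12922 other genes lay closer to Rbbp5 in these sets. Kmt2b and Setd1a came next, with SDs of 0.24 and 0.18. Kmt2a and Kmt2c had SDs of 0.25 and 0.26, and Men1 and Kmt2d were the farthest pair over 16 tumors, with an SD of 1.09. The median over the 45 pairs was 0.54 over 16 tumors and 0.37 without sgControl RPP tumor 1, against 0.71 and 0.57 between a member and any tested gene. Genes that vary little give a small SD whether or not they follow each other. Without sgControl RPP tumor 1, all members but Men1 had a coefficient of variation below the 31.4% of the median tested gene. These SDs are descriptions of tumors that share library properties, and carry no test.

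**Figure D5:**
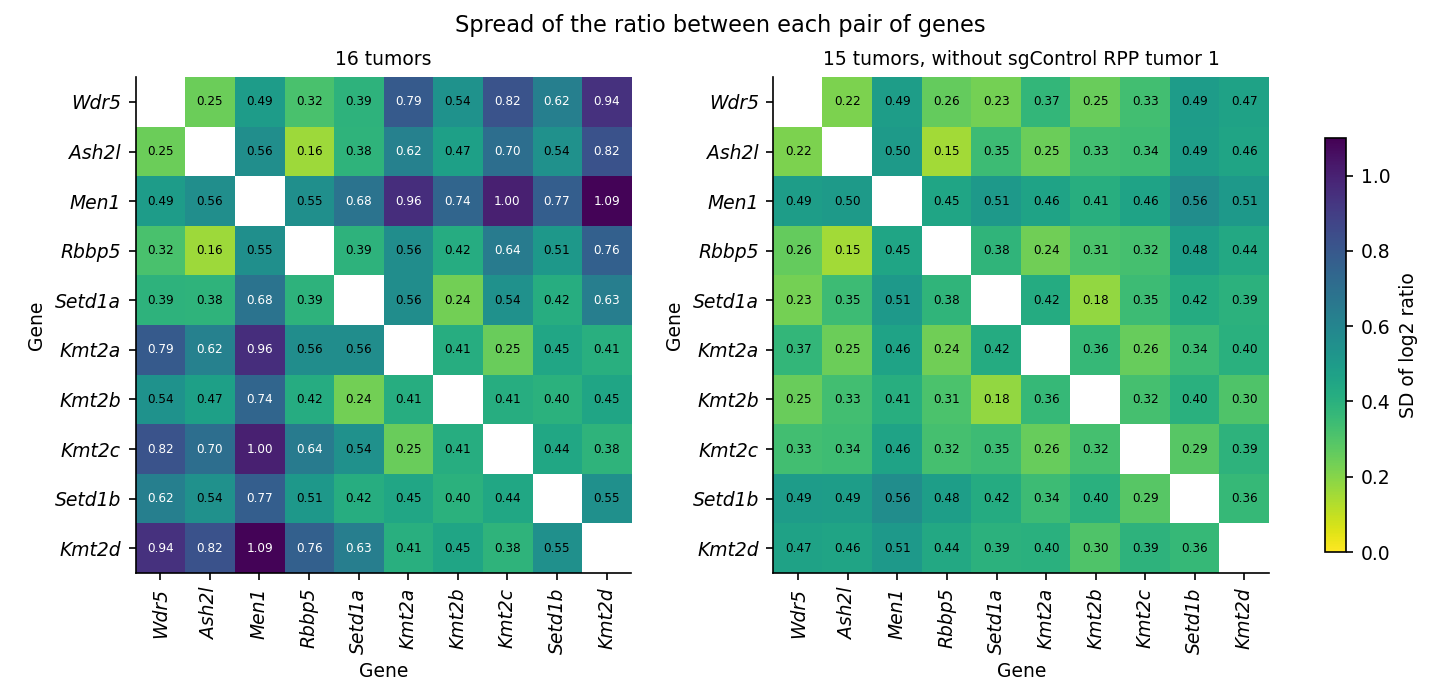
SD over tumors of the log2 ratio of FPKM for each pair of the 10 genes, with all 16 tumors (left) and without sgControl RPP tumor 1 (right); small values mean a steadier ratio. Ash2l and Rbbp5 have the steadiest ratio in both panels (0.16 and 0.15), and the large values of Kmt2d, Kmt2a and Kmt2c against Wdr5, Ash2l, Rbbp5 and Men1 on the left shrink on the right.

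The gene most like each member, among 12922 others above 0 in every tumor, depended on that library. Over 16 tumors these were Jmjd1c for Kmt2a (SD 0.20), Tlk2 for Kmt2b (0.18), 2410089E03Rik for Kmt2c (0.18), Prpf38b for Kmt2d (0.33), Klhdc3 for Setd1a (0.16) and Wdfy3 for Setd1b (0.24). For the partners they were Ctbp1 for Wdr5 (SD 0.12), Amz2 for Ash2l (0.15), Hspa4 for Rbbp5 (0.14) and Ints5 for Men1 (0.31). Without sgControl RPP tumor 1 the nearest gene was another in 9 of 10 cases, and Hspa4 stayed nearest to Rbbp5.

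Other genes of H3K4 methylation gave no calls either. Of 11 further COMPASS subunits, all tested, 0 rose and 0 fell (median log2 difference 0.12, 4 above the all-gene median of 0.21). Those of smallest p were Paxip1, the PTIP subunit of KMT2C and KMT2D complexes (16.8 ± 6.34 FPKM in the sgControl-labelled and 20.1 ± 3.49 FPKM in the sgKdm5a-labelled tumors, SD, n = 8 each), and Psip1, the chromatin tether LEDGF of menin and KMT2A. Psip1 averaged 366 ± 403 and 205 ± 63.8 FPKM, with 1343 FPKM in a single sgControl-labelled tumor and medians of 269 and 192 FPKM. Of 8 other SET-domain and MLL-like genes 7 were tested, 0 rose and 0 fell (median 0.02, 1 above the all-gene median). The lysine methyltransferase gene Setd7 averaged 14.5 ± 5.63 and 17.2 ± 4.45 FPKM, and the meiotic H3K4 methyltransferase gene Prdm9 2.00 ± 0.669 and 1.66 ± 0.850 FPKM. Smyd1, known from muscle, was below the filter with a highest value of 4.59 FPKM.

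On the opposing side, 0 of 5 H3K4 demethylase genes passed (median log2 difference 0.47, 3 above the all-gene median), with 1, Kdm5a, at an unadjusted p below 0.05. Kdm5a differed by 0.84 (adjusted p = 0.852, limma), and its paralog Kdm5b averaged 4.88 ± 3.08 and 6.76 ± 1.65 FPKM. Of 11 genes of H3K4 methyl readers, all tested, 0 passed (median 0.14, 4 above). Those of smallest p were Ing4 and Ing5, which encode subunits of histone acetyltransferase complexes. They averaged 29.2 ± 11.9 and 7.53 ± 2.85 FPKM in the sgControl-labelled and 34.5 ± 4.82 and 9.35 ± 1.29 FPKM in the sgKdm5a-labelled tumors. Of 6 genes known as targets of menin and KMT2A, the 3 that passed the filter gave 0 calls (median 0.13, 0 above). The cell cycle inhibitor genes Cdkn1b (85.3 ± 40.03 and 88.1 ± 25.7 FPKM) and Cdkn2c (146.8 ± 70.1 and 157 ± 81.0 FPKM), which menin activates in endocrine cells, were well expressed in both groups. Hoxa9 was listed at 0 in all 16 tumors, Hoxa10 did not exceed 0.0442 FPKM and Hoxa7 did not exceed 0.258 FPKM.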

How the data were processed

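The deposited table held FPKM, a unit inferred from non-integer values and the tools named; the sheet itself speaks of counts. STAR 2.5.1b, Cufflinks 2.2.1 and build mm9 are named, without roles, in the submitters' processing notes; for annotation and filters, the entry is "not given in the sources used here". Read depth is unknown, so precision rests on the spread between tumors. Columns of other samples numbered 0, and no 2 of 120 library pairs were identical. Of 24043 entries, 27 with names turned into dates were left out. Genes reaching 1 FPKM in 8 or more tumors were tested on log2(FPKM + 1) with limma 3.58.1 in R 4.3.3 (intensity trend, robust variance), adjusted by Benjamini-Hochberg at 0.05. The fit was tested on simulated data. The 3 paralog ratios were compared by exact permutation over 12870 assignments. Transcript lengths were the longest per symbol in GENCODE vM21 (GRCm38), found for 95.5% of tested genes and used as a property only.

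The members and lists were chosen with earlier results of these data known. All 10 members and Kdm5a are named, and of each other list the genes that passed or the 2 of smallest p. Dpy30, the shared subunit outside the 10, was named as well, after its values were seen. One gene of the marker lists is not reported here and was left out of its sum. The genes not tested and the examples in single tumors were chosen after their values were seen. The alternatives tried are median scaling, quantile normalization, no filter, a pseudocount of 0.1, sample weights, the tumor number as a block, the number series as a covariate or its lower part alone, and leaving out each tumor. Same-numbered tumors did not deviate together, so the numbers were not treated as pairs.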

Additional observations from a re-analysis of the deposited data

Results flagged for a closer look

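Of 26 group values screened (10 genes and 3 ratios in 2 groups), 6 had a tumor standing far from the other 7, where chance flags about 1 in 20. In the sgControl-labelled group, sgControl RPP tumor 1 was far below the others for Wdr5 (3.50 FPKM, next 21.6), Ash2l (4.85 FPKM, next 21.9) and Rbbp5 (2.87 FPKM, next 11.9), and far above them for the Kmt2a to Kmt2b ratio (2.03, next 1.297). In the same group, sgControl RPP tumor 4 stood high for the Kmt2c to Kmt2d ratio (3.69, next 2.47). Among the sgKdm5a-labelled tumors, tumor 2 stood high for Setd1a (22.7 FPKM, next 15.9).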

How the results depend on the processing

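Under 26 alternatives the count of members past the threshold stayed at 0, and 233 of 260 member values kept their direction. Kmt2b, Kmt2d, Setd1b and Men1 did so in every alternative run. Most of the alternatives kept sgControl RPP tumor 1 at its deposited scale and largely repeat the main fit, so the pooled count is a weak measure of stability. With median scaling the log2 differences of Kmt2a, Kmt2c, Setd1a and Ash2l turned to -0.17, -0.23, -0.0042 and -0.0098 (the same with the replicate block added, an alternative chosen after seeing the data), and with quantile normalization to -0.15, -0.22, -0.020 and -0.011. With sample weights Setd1a, Wdr5, Ash2l and Rbbp5 turned to -0.12, -0.14, -0.090 and -0.011, and in the mice numbered 190 to 238 alone Kmt2a turned to -0.0083. Wdr5 and Ash2l were -0.016 and -0.046 when sgControl RPP tumor 1 was left out of the median scaling. Leaving out 1 tumor at a time gave -0.041 to 0.079 for Kmt2c, -0.035 to 0.39 for Wdr5, -0.064 to 0.31 for Ash2l and -0.011 to 0.32 for Rbbp5; the last 3 turned only without sgControl RPP tumor 1. For the ratios, leaving out 1 tumor gave -0.47 to -0.29 for Kmt2c to Kmt2d (adjusted p 0.0224 to 0.167, exact permutation), -0.35 to -0.12 for Kmt2a to Kmt2b and -0.19 to 0.017 for Setd1a to Setd1b, where the positive values came without sgControl RPP tumor 8 (0.014) or sgKdm5a RPP tumor 4 (0.017). The median SD of the log2 ratio between members moved from 0.54 to 0.37 without sgControl RPP tumor 1. The cause was not tested. As a pairing by tumor number (replicate block), the Kmt2c to Kmt2d difference of -0.40 had an adjusted p of 0.0234 (exact sign-flip permutation), the smallest raw p this test allows being 0.0078, and no member was called. Same-numbered tumors correlated at -0.30 to 0.38, with 2 of 8 pairs above 0.1 and 2 of 8 tumors correlating best with their own number. Depth is unknown, so what it limits cannot be stated.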
